A study of Mus musculus with 6 samples.

Results

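The genes described here are 8 genes tied to the endothelial tip cell and to apelin signalling: Apln, Aplnr, Esm1, Cxcr4, Unc5b, Kcne3, Robo4 and Lcp2. They were chosen by name from the 55401 genes of the count table, and all 8 were found there and passed the filter on low counts, which kept 18438 genes. RNA was sequenced from kidney endothelial cells (ECs), sorted as cells with CD31 and without CD45 on their surface, of 3 RbpjΔEC and 3 CTRL mice. All mice were male, carried floxed alleles of Rbpj on both chromosomes and received tamoxifen (5 injections of 1.5 mg at 8 weeks of age), and kidneys were taken 12 weeks later, at a labelled age of 21 weeks. RbpjΔEC mice also carried the Cdh5-CreERT2 transgene, a tamoxifen-dependent Cre driven by the promoter of the endothelial cadherin Cdh5, whereas CTRL mice were littermates without Cre. An effect of the Cre transgene itself and an effect of the deletion therefore cannot be told apart.

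Tip cells are the migrating cells at the front of a growing vessel sprout. They respond to VEGF and present the Notch ligand DLL4, and Notch signalling in the neighbouring stalk cells, which acts through the transcription factor RBPJ, restrains the tip-cell programme there. Apelin, a secreted peptide, and its G protein-coupled receptor APLNR are both made by ECs, and the ligand is known as a tip-cell product. The comparison asks whether these transcripts differed between adult kidney ECs with and without Cre-mediated loss of Rbpj.

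No gene of the 8 passed the threshold, an adjusted p under 0.05 by edgeR's quasi-likelihood test over all 18438 tested genes. This was so in both directions, while 1 of the 8 (Apln) had an unadjusted p under 0.05 by edgeR, as had 17.5% of all tested genes (8.88% higher and 8.62% lower), and 0 passed with DESeq2. Over all tested genes 209 passed, which is 1.13%, and 106 (0.575%) were higher in RbpjΔEC and 103 lower, or 159 and 82 with library size alone as the scale. The groups of 3 libraries did not overlap for 1 of the 8 genes, against 4240 tested genes (23.0%) whose groups did not overlap. The median log2 fold change was 0.01 over the 8 genes and 0.01 over all tested genes. The pooled SD of log2 CPM within the groups ran from 0.123 for Robo4 to 0.761 for Lcp2, the gene with the fewest counts. Set against genes within 2-fold of its own level, the SD of Aplnr was larger than that of 99.8% of them, of Apln 98.0%, of Cxcr4 86.7%, of Unc5b 85.4%, of Lcp2 82.5%, of Robo4 69.0%, of Esm1 66.0% and of Kcne3 55.6%.

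The libraries held 39649171 to 47726850 counts on genes, and a count of 3, taken as the floor of detection, was 0.0634 to 0.0749 CPM (counts scaled to the library size after TMM adjustment). Counting intervals and this floor cover counting error only, since the reads carried no molecular identifiers used here. In CTRL 1 a count was listed for 33764 genes, and in the remaining libraries for 25629 to 26785. Summed pan-endothelial markers, such as Pecam1 and Cdh5, were 26754 to 29547 CPM in CTRL and 24287 to 24562 CPM in RbpjΔEC. The whole-gene count of Rbpj was 28.1 to 29.8 CPM in CTRL and 26.1 to 29.6 CPM in RbpjΔEC. It also takes reads from the parts of Rbpj that stay in place, so it does not check the deletion. In sorted bulk cells, fewer cells of a type and less RNA per cell cannot be told apart.

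**Figure D1:**
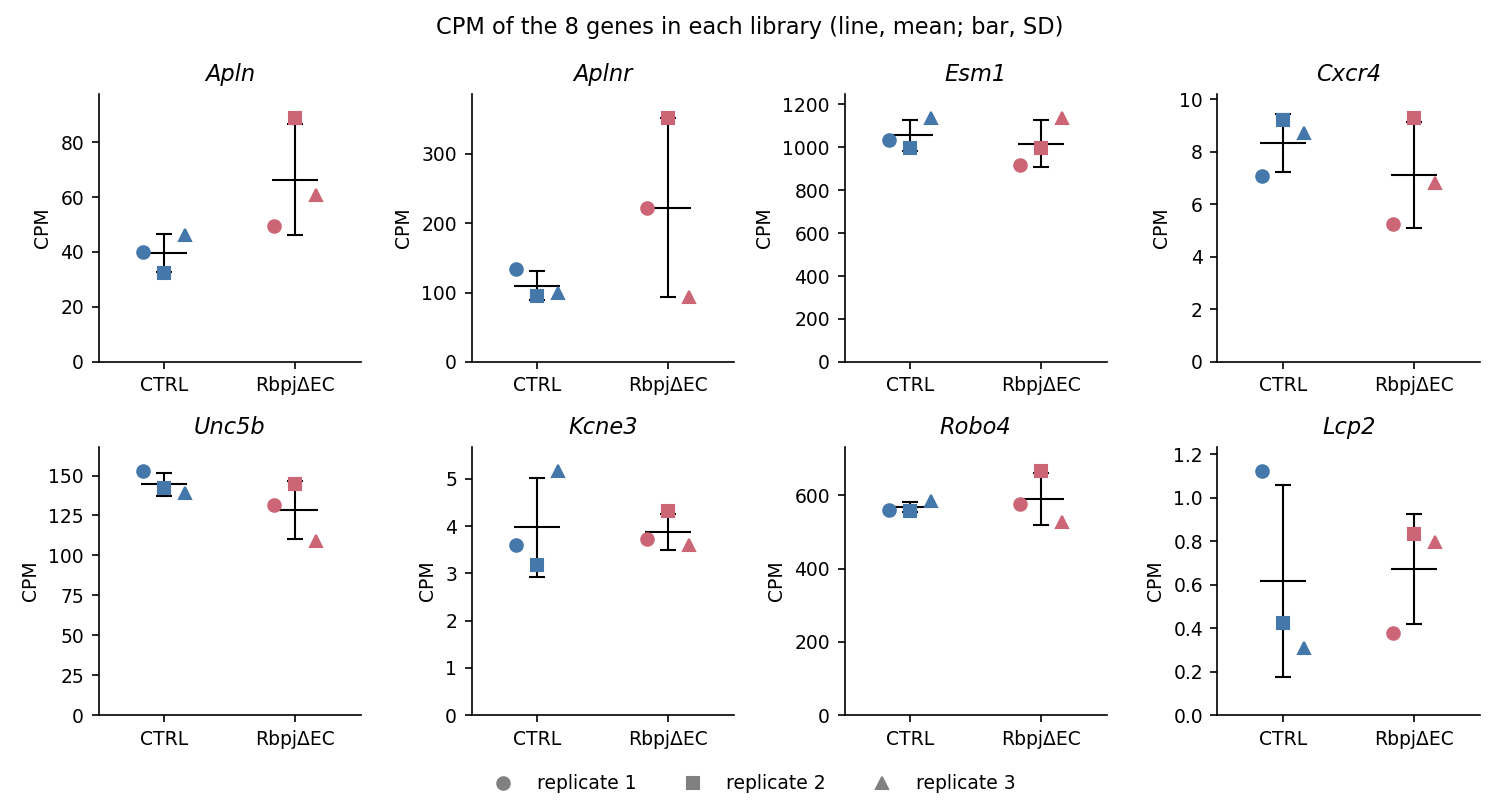
CPM (y axes, linear from 0, a scale of its own in each panel) of the 8 genes in the 3 CTRL (blue) and 3 RbpjΔEC (red) libraries, with the symbol giving the replicate number, a line at the mean and a bar of 1 SD. Apln is the 1 gene whose groups do not overlap, and Aplnr runs from 94.0 to 352 CPM within RbpjΔEC.

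Divided by exonic length, which was taken from an earlier annotation release than the counts, the levels of the 8 genes in CTRL fell in a fixed order. Esm1 stood at 503 ± 34.7 CPM per kb (SD, n = 3), Robo4 at 107 ± 2.76, Aplnr at 29.6 ± 5.67 and Unc5b at 23.1 ± 1.16. Below them came Apln at 12.6 ± 2.22 CPM per kb, Cxcr4 at 4.61 ± 0.615, Kcne3 at 2.23 ± 0.590 and Lcp2 at 0.138 ± 0.0989. No neighbours in this order overlapped among the CTRL libraries. In RbpjΔEC the order changed at 1 place: Apln, at 21.1 ± 6.43 CPM per kb, stood just above Unc5b, at 20.5 ± 2.91. There the library ranges of Aplnr (25.4 to 95.1 CPM per kb) and Apln (15.7 to 28.2) overlapped, as did those of Apln and Unc5b (17.4 to 23.1). These are levels within a group, and no test was made between genes.

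Apln (ENSMUSG00000037010.7), on the minus strand of chromosome X at 48025146 to 48034853 of GRCm38, encodes the apelin precursor. It had 40.0, 32.4 and 46.3 CPM in CTRL 1 to 3 and 49.5, 88.8 and 60.6 CPM in RbpjΔEC 1 to 3. Every RbpjΔEC library was above every CTRL library, with RbpjΔEC 1 close to the highest CTRL library and RbpjΔEC 2 well above the rest. The means were 39.6 ± 7.0 and 66.3 ± 20.2 CPM (SD, n = 3 each). The log2 fold change was 0.75 (SE 0.250, 95% interval 0.13 to 1.36), or 1.68-fold, with an adjusted p of 0.215 by edgeR. DESeq2 gave an adjusted p of 0.276. An exact two-sided permutation test on the means of log2-transformed CPM gave p = 0.1, the smallest that 3 libraries against 3 allow. Without RbpjΔEC 2 the log2 fold change was 0.48 (adjusted p by edgeR 0.203), and with each library left out in turn it stayed above 0, up to 0.92.

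The RefSeq annotation gives 1 start of Apln, and the 250 bases before it (GRCm38.p6, chrX:48034854-48035103, minus strand) are shown because Apln is the gene with separated groups and RBPJ binds a short DNA word. In lower case throughout, the stretch holds no match to that word, TGGGAA, on either strand, for which capitals are used further on.
Apln upstream: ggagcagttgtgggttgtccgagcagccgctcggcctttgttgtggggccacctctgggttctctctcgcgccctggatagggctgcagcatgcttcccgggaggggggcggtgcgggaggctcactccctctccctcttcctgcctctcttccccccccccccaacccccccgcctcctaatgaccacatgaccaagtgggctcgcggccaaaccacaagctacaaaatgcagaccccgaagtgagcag
A missing match says only that these letters are not in this window.

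Aplnr (ENSMUSG00000044338.9), the apelin receptor, lies on the plus strand of chromosome 2 at 85136225 to 85139923. Its levels were 133.8, 95.6 and 99.6 CPM in CTRL 1 to 3 and 222, 352 and 94.0 CPM in RbpjΔEC 1 to 3. RbpjΔEC 1 and RbpjΔEC 2 were the highest of the 6 libraries, and RbpjΔEC 3 was the lowest. The means were 109.6 ± 21.0 CPM in CTRL and 223 ± 129 CPM in RbpjΔEC (SD, n = 3 each). The log2 fold change was 1.02 (SE 0.542, 95% interval -0.45 to 2.49), or 2.03-fold, with an adjusted p of 0.424 by edgeR and 0.555 by DESeq2, and an exact permutation test gave p = 0.4. Aplnr thus had the largest estimate of the 8 genes, and also the widest interval.

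Behind these levels Aplnr had 5363, 4525 and 4205 counts in CTRL 1 to 3 and 9963, 14764 and 3765 counts in RbpjΔEC 1 to 3, for which counting alone gives a coefficient of variation of 1.19%. That between the RbpjΔEC libraries, which holds the differences between mice as well, was 57.9%. The highest RbpjΔEC library was 3.75 times the lowest, and in CTRL this ratio was 1.4. On the log2 CPM scale the SD was 0.967 within RbpjΔEC and 0.264 within CTRL, or 0.709 pooled. Among the 2121 tested genes within 2-fold of the mean level of Aplnr the median pooled SD was 0.0863, and 99.8% of them had a smaller SD than Aplnr.

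**Figure D2:**
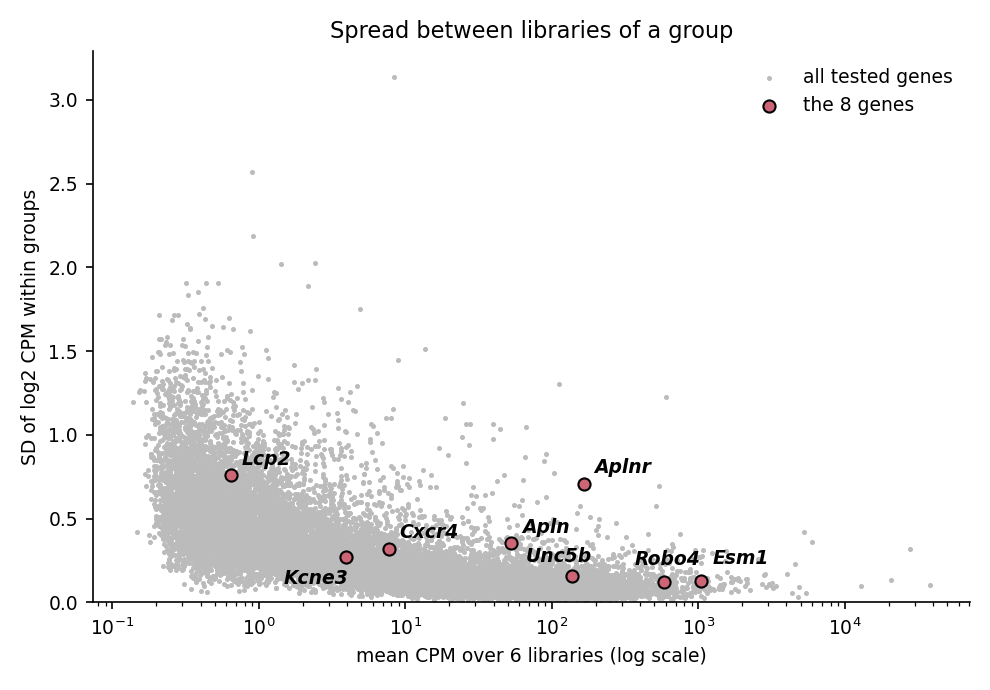
Pooled SD of log2 CPM within the groups (y axis) against mean CPM over the 6 libraries (x axis, log scale) for all 18438 tested genes (grey) and the 8 genes (red, labelled). Aplnr, with an SD of 0.709, stands above nearly all genes of its level, and Esm1 (0.129) and Robo4 (0.123) lie among them.

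The genes of that level with a larger SD were 4, named here after their values were seen. Egf, made by the distal nephron, had 227, 104 and 115 CPM in CTRL and 60.6, 26.7 and 91.6 CPM in RbpjΔEC. Gpx3, a glutathione peroxidase secreted by the proximal tubule, was at 40.5, 55.1 and 88.2 CPM in CTRL and at 58.5, 68.9 and 223 CPM in RbpjΔEC. Zbtb16 and Fkbp5, both known as glucocorticoid-responsive genes, were highest in RbpjΔEC 3, at 273 and 161 CPM, and lowest in RbpjΔEC 1, at 25.5 and 40.8 CPM. In RbpjΔEC 3, where Aplnr was lowest, 3 of these 4 genes (Gpx3, Zbtb16 and Fkbp5) were at their highest.

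The fold change of Aplnr was larger without RbpjΔEC 3 and smaller without RbpjΔEC 2, while its spread was smaller without either. Without RbpjΔEC 3 the log2 fold change was 1.39 (adjusted p by edgeR 0.0821) and the pooled SD 0.345. Without RbpjΔEC 2 they were 0.53 (adjusted p by edgeR 0.654) and 0.551. Neither put Aplnr past the threshold. The summed level of the 8 tubule markers, Umod and Slc12a1 among them, was 444 CPM in RbpjΔEC 3, against 168 and 124 CPM in RbpjΔEC 1 and 2 and 290 to 422 CPM in CTRL, with none of the 8 at 0 in all libraries. The 4 markers of the proximal tubule (Slc34a1, Lrp2, Cubn and Kap) were all highest in RbpjΔEC 3, for Lrp2 at 129 CPM against 13.7 to 40.4 CPM elsewhere. The 4 markers of later segments (Umod, Slc12a1, Slc12a3 and Aqp2) were all highest in CTRL 1, for Umod at 106 CPM against 18.3 to 68.4 CPM elsewhere. The immediate-early genes, which a cell induces within minutes of handling or stimulation, summed to 6616 to 7823 CPM in CTRL, to 9749.5 and 10377 CPM in RbpjΔEC 1 and 2 and to 8752 CPM in RbpjΔEC 3. The part of tubule RNA or of the immediate-early response in the Aplnr values was not tested.

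The genes whose pattern over the 6 libraries lay nearest to that of Aplnr were sought among 10441 tested genes with a mean of at least 5 CPM, by the root mean square difference of their mean-centred log2 CPM. This likeness is a description over 6 libraries. Lrrc55, which encodes a leucine-rich repeat protein known as an auxiliary subunit of BK potassium channels, was nearest, with a difference of 0.115. It had 9.75, 6.89 and 8.12 CPM in CTRL and 15.8, 31.2 and 6.86 CPM in RbpjΔEC. As these genes were chosen for their pattern, their levels are given without a test.

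Next came Trp53i11, a p53-inducible gene often listed with tip-cell genes, at a difference of 0.232, with 86.5, 58.1 and 68.3 CPM in CTRL and 117, 178 and 76.6 CPM in RbpjΔEC. Nos2, the inducible nitric oxide synthase, followed at 0.244, with 28.6, 25.5 and 23.7 CPM in CTRL and 37.3, 59.4 and 20.04 CPM in RbpjΔEC.

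**Figure D3:**
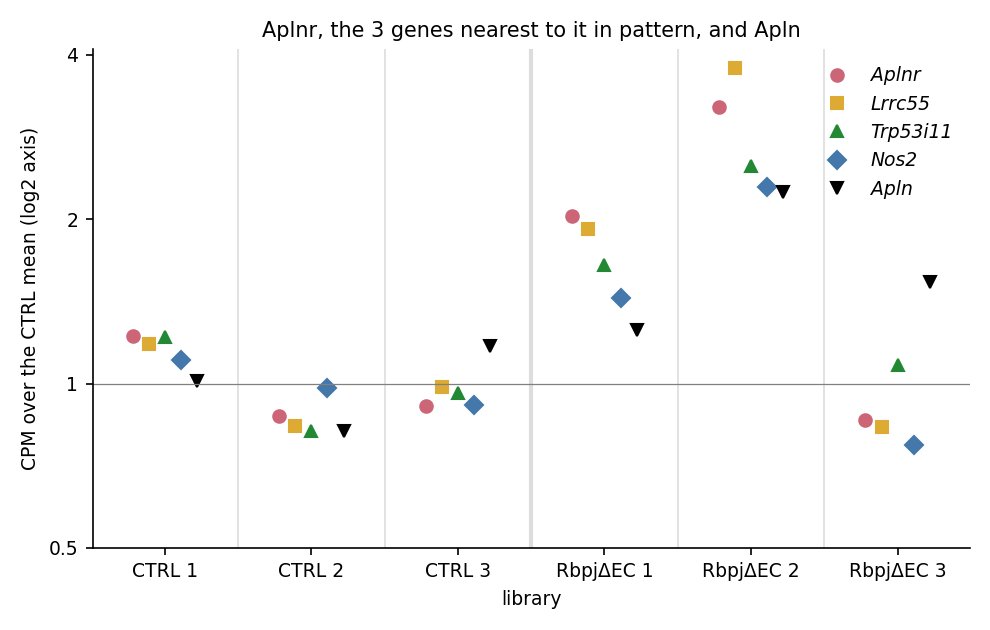
CPM divided by the CTRL mean of the same gene (y axis, log2 scale) in each of the 6 libraries for Aplnr, for the 3 genes nearest to it in pattern, and for Apln. Aplnr is at 2.03, 3.21 and 0.857 times its CTRL mean in RbpjΔEC 1 to 3, Lrrc55 at 1.92, 3.78 and 0.831, and Apln at 1.25, 2.24 and 1.53.

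Lrrc55 is also the nearest tested protein-coding gene to Aplnr on chromosome 2. It lies at 85162334 to 85197197 on the minus strand, 22411 bases beyond the 3′ end of Aplnr, so that the genes point towards each other. This was looked up after the pattern was seen. Of the 9 tested genes within 300 kb of Aplnr, the other 8 had log2 fold changes from -0.19 to 1.12, the latter for Gm13713, an antisense transcript on the opposite strand of Lrrc55 with 5 to 40 counts, and 0 of the 8 passed the threshold by edgeR. In 0 of these 8 was RbpjΔEC 2 the highest library by over 1.5 times the next. On the other side, Tnks1bp1, which encodes a tankyrase-binding protein, lies 63177 bases away and was level, at 326, 296 and 278 CPM in CTRL and 291, 296 and 275 CPM in RbpjΔEC. Trp53i11 is on chromosome 2 as well, from 93187548 to 93201759, and Nos2 is on chromosome 11.

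For Apln, the nearest patterns among the same 10441 genes were those of Papln, a matrix protein of the papilin family, at 0.186, of Ccn4, a secreted matricellular protein, at 0.199, and of Id4, an inhibitor of basic helix-loop-helix factors, at 0.202. Papln was at 9.13, 6.25 and 7.43 CPM in CTRL and at 8.97, 14.2 and 9.81 CPM in RbpjΔEC. Id4 was at 28.2, 22.9 and 32.3 CPM in CTRL and at 38.7, 46.4 and 34.4 CPM in RbpjΔEC. These levels, too, are a description of genes chosen for their pattern.

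Ligand and receptor did not follow each other across the RbpjΔEC libraries. RbpjΔEC 2 was highest for both, but RbpjΔEC 3, the lowest library for Aplnr, was the second highest for Apln. A further 12 genes of apelin signalling (the second ligand Apela, the peptidase Mme, G protein subunits, arrestins, Grk2, Foxo1 and Mef2c) were all tested. In either direction 0 passed by edgeR, and 0 with DESeq2. At an unadjusted p under 0.05 by edgeR were 6 of the 12, all of them lower, against 8.62% lower among all tested genes. The median log2 fold change of the 12 was -0.19, that of the pan-endothelial markers was -0.19 too, and that of all tested genes was 0.01. Gnai1, an inhibitory G protein subunit, had 8.36, 7.48 and 8.52 CPM in CTRL and 4.44, 5.65 and 5.84 CPM in RbpjΔEC (log2 fold change -0.61, adjusted p by edgeR 0.0907). Gnai3, of the same family, had 117, 102 and 106 CPM in CTRL and 90.2, 91.9 and 93.7 CPM in RbpjΔEC (log2 fold change -0.24, adjusted p by edgeR 0.119). The groups did not overlap for either subunit. Gnai1 passed with DESeq2 under independent filtering (adjusted p 0.0278) and in edgeR with no filter on low counts (adjusted p 0.0312).

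Esm1 (ENSMUSG00000042379.8, chromosome 13, 113209659 to 113218098, plus strand) encodes endocan, a secreted proteoglycan often used as a tip-cell marker. It was at 1033, 996 and 1137 CPM in CTRL and at 919, 994 and 1135 CPM in RbpjΔEC. The groups overlapped, and the highest library of each lay at nearly the same level. The means were 1055 ± 72.8 and 1016 ± 109 CPM (SD, n = 3 each), with a log2 fold change of -0.05 (SE 0.0902, 95% interval -0.25 to 0.14, adjusted p by edgeR 0.793). The interval spans 0.840-fold to 1.104-fold. The genes with the nearest pattern, Atp6v1e1 (a proton pump subunit), Mid2 (a ubiquitin ligase) and Pgm2l1 (a sugar phosphate mutase), lay at differences of 0.0157 to 0.0264.

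**Figure D4:**
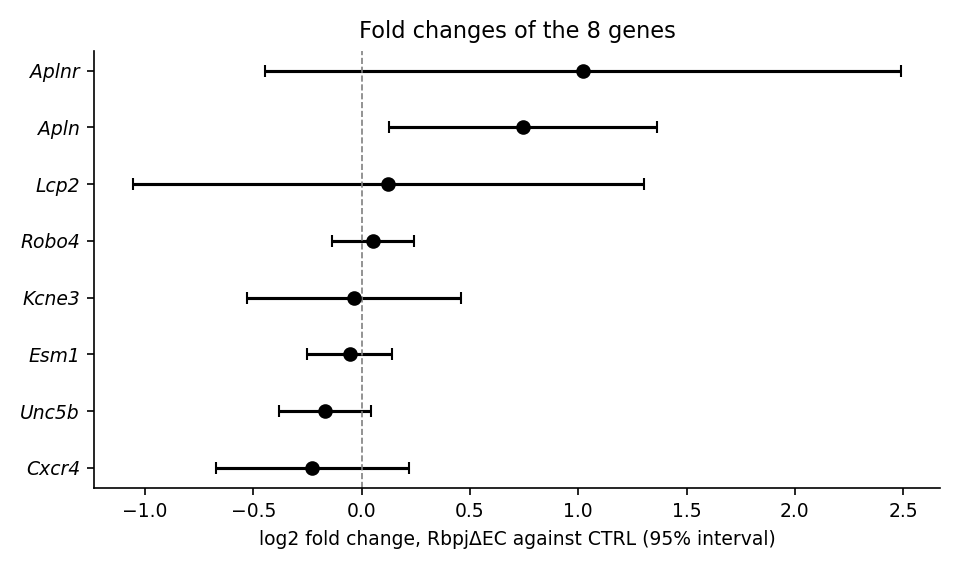
Log2 fold change of RbpjΔEC against CTRL (x axis) for the 8 genes, with points for the edgeR estimate and bars for its 95% interval. The interval of Apln, 0.13 to 1.36, is the 1 that leaves out 0, before adjustment over all genes, and those of Esm1, Robo4 and Unc5b are the narrowest.

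Unc5b and Robo4 are guidance receptors of ECs that bind each other. Unc5b (ENSMUSG00000020099.8, chromosome 10, 60762593 to 60831581, minus strand), also a netrin receptor, was at 152.7, 142.3 and 138.8 CPM in CTRL and at 131.7, 144.9 and 108.9 CPM in RbpjΔEC. RbpjΔEC 3 was lowest, while RbpjΔEC 2 lay within the CTRL range. Its log2 fold change was -0.17 (SE 0.0970, 95% interval -0.38 to 0.04, adjusted p by edgeR 0.392), and without RbpjΔEC 3 it was -0.064. Robo4 (ENSMUSG00000032125.21, chromosome 9, 37401897 to 37415115, plus strand), the endothelial member of the roundabout family, was at 561, 559 and 585 CPM in CTRL and at 577, 666 and 528 CPM in RbpjΔEC. The CTRL libraries fell inside the RbpjΔEC range. Its log2 fold change was 0.05 (SE 0.0867, 95% interval -0.13 to 0.24, adjusted p by edgeR 0.786), and without RbpjΔEC 2 it was -0.041.

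Of 20 other genes of the Robo and Unc5 families, their ligands and coreceptors, 15 were tested, 0 rose and 1 fell. The gene that fell was Ntn4, the netrin of vascular basement membranes. It had 268, 304 and 310 CPM in CTRL and 182, 189 and 213 CPM in RbpjΔEC, with no overlap (log2 fold change -0.59, SE 0.0831, adjusted p by edgeR 0.0101). The call on Ntn4 was lost without CTRL 3 (adjusted p by edgeR 0.0723) and without RbpjΔEC 1 (adjusted p 0.0710), with log2 fold changes of -0.56 and -0.55. The median log2 fold change of the 15 was -0.25, and 6 were lower at an unadjusted p under 0.05 by edgeR, against 8.62% of all tested genes. DESeq2 put 5 of the 15 past the threshold, all lower: Ntn4 and a further 4 named for this after their values were seen. Run with no filter on low counts, DESeq2 called 322 of 38324 genes with a count lower. The roundabout receptor genes Robo1 and Robo2 had log2 fold changes of -1.05 (adjusted p 0.0562 by edgeR and 0.00917 by DESeq2) and -1.80 (0.0797 and 0.0314). Slit2, a ligand of that family, had -1.04 (0.0830 and 0.0130), and Ntn1, a netrin, had -0.48 (0.115 and 0.0452). Robo1 was at 4.41, 3.68 and 5.35 CPM in CTRL and at 2.57, 1.84 and 2.07 CPM in RbpjΔEC, well below Robo4.

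Cxcr4 (ENSMUSG00000045382.6, chromosome 1, 128588199 to 128592293, minus strand) encodes the receptor of the chemokine CXCL12 and marks tip cells as well as many leukocytes. It was at 7.08, 9.21 and 8.71 CPM in CTRL and at 5.26, 9.30 and 6.81 CPM in RbpjΔEC. The highest library was RbpjΔEC 2 and the lowest RbpjΔEC 1. The log2 fold change was -0.23 (SE 0.203, 95% interval -0.67 to 0.22, adjusted p by edgeR 0.598). Without RbpjΔEC 1 it was -0.050 and without RbpjΔEC 2 it was -0.47. Summed B cell markers were 3.57 to 7.28 CPM in CTRL and 0.870 to 2.62 CPM in RbpjΔEC, with no marker of the 9 at 0 in all libraries. Summed macrophage and monocyte markers were 7.16 to 21.4 CPM in CTRL and 3.98 to 7.64 CPM in RbpjΔEC, likewise with none of 10 at 0 throughout. The B cell and the macrophage sums both include the pan-leukocyte gene Ptprc (CD45, against which cells were sorted). Ptprc was at 3.92, 1.16 and 2.70 CPM in CTRL and 0.535, 0.739 and 1.60 CPM in RbpjΔEC. Of the B cell sum it held 3.92 of 7.28 CPM in CTRL 1 and 1.16 of 3.57 CPM in CTRL 2. The part of leukocyte RNA in the low Cxcr4 level was not tested.

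Of 7 genes around CXCR4 all were tested, and 0 passed in either direction by edgeR. With DESeq2, which called 322 of 38324 genes lower, 1 of the 7 passed, lower. An unadjusted p under 0.05 by edgeR was reached by 1 higher and 1 lower gene, against 8.88% and 8.62% of all tested genes. The median log2 fold change of the 7 was -0.12. Cxcl12, the ligand, was at 31.5, 42.2 and 45.2 CPM in CTRL and at 29.5, 30.6 and 23.8 CPM in RbpjΔEC, with no overlap (log2 fold change -0.50, adjusted p by edgeR 0.116). DESeq2 put Cxcl12 past the threshold (adjusted p 0.0372). Rgs16, a regulator that shortens G protein signals, was at 5.54, 7.82 and 7.10 CPM in CTRL and at 11.5, 13.5 and 6.44 CPM in RbpjΔEC, where RbpjΔEC 3 lay inside the CTRL range. Its log2 fold change was 0.62 (adjusted p by edgeR 0.251) and, without RbpjΔEC 3, 0.87 (adjusted p 0.0230).

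Kcne3 (ENSMUSG00000035165.14, chromosome 7, 100176502 to 100184869, plus strand) encodes an accessory subunit of voltage-gated potassium channels and has been used as a tip-cell marker. It was at 3.59, 3.17 and 5.16 CPM in CTRL and at 3.72, 4.31 and 3.59 CPM in RbpjΔEC. All RbpjΔEC libraries fell inside the CTRL range. The log2 fold change was -0.03 (SE 0.227, 95% interval -0.53 to 0.46, adjusted p by edgeR 0.955), and with library size alone as the scale it was 0.010. An antisense gene, Gm34821, overlaps exons of Kcne3 with 0 to 15 counts per library, against 144 to 218 for Kcne3. Of 12 genes of the Kcne family and its channel partners, 11 were in the table and 7 tested, and 0 passed in either direction by edgeR or DESeq2. At an unadjusted p under 0.05 by edgeR were 0 of the 7, against 17.5% of all tested genes. The median log2 fold change of the 7 was -0.17. Kcne1, the nearest in p, was at 1.60, 0.232 and 0.947 CPM in CTRL and at 0.245, 0.0715 and 0.524 CPM in RbpjΔEC (adjusted p by edgeR 0.286). With no filter on low counts Kcne1 passed (adjusted p by edgeR 0.0332). For the channel gene Kcnq5 the CPM was 0.499, 0.296 and 0.0947 in CTRL and 0, 0.0715 and 0.349 in RbpjΔEC (adjusted p by edgeR 0.610).

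Lcp2 (ENSMUSG00000002699.13, chromosome 11, 34046920 to 34092295, plus strand) encodes SLP-76, an adaptor of T cell, mast cell and platelet signalling. It had 45, 20 and 13 counts in CTRL 1 to 3 and 17, 35 and 32 counts in RbpjΔEC 1 to 3, that is 1.12, 0.422 and 0.308 CPM and 0.379, 0.834 and 0.799 CPM. The highest and the lowest library were both CTRL. Its log2 fold change was 0.12 (SE 0.540, 95% interval -1.06 to 1.30, adjusted p by edgeR 0.932), with an interval from 0.481-fold to 2.47-fold. Counting alone gives a coefficient of variation of 19.2%, while that between libraries was 71.4% in CTRL and 37.7% in RbpjΔEC. Without CTRL 1 the log2 fold change was 0.86, and without CTRL 3 it was -0.20.

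Markers of T cells and of platelets were looked at, and those of mast cells were not. The T cell markers summed to 6.70 to 7.48 CPM in CTRL and 5.44 to 9.46 CPM in RbpjΔEC, of which Lck held 3.04 to 8.73 CPM, while Cd3d and Cd3e were at 0 in all 6 libraries. Ptprc is part of this sum as well. Platelet and megakaryocyte markers summed to 6.70 to 12.2 CPM in CTRL and 8.03 to 10.7 CPM in RbpjΔEC, with Treml1 at 0 in all 6. CTRL 1, the library highest for Lcp2, was also highest for Ptprc and for the platelet sum, and it is the library that lists a count for the most genes (33764). Whether these cells gave the Lcp2 counts was not tested. Of 18 partners of SLP-76, 14 were tested and 0 passed in either direction by edgeR or DESeq2. An unadjusted p under 0.05 by edgeR was reached by 2 higher and 2 lower genes, against 8.88% and 8.62% of all tested genes. The median log2 fold change of the 14 was -0.11. Blnk, the related adaptor of B cells, was at 1.45, 0.697 and 0.923 CPM in CTRL and 0.201, 0.238 and 0.424 CPM in RbpjΔEC (log2 fold change -1.82, adjusted p by edgeR 0.0858). Plcg2, a phospholipase, was at 64.3, 70.0 and 70.2 CPM in CTRL and 51.7, 50.1 and 60.9 CPM in RbpjΔEC (log2 fold change -0.33, adjusted p by edgeR 0.0897). Both Blnk and Plcg2 passed without RbpjΔEC 3 (adjusted p by edgeR 0.0490 and 0.0250). They also passed with DESeq2 under independent filtering (adjusted p 0.0377 and 0.0289) and in edgeR with no filter on low counts (adjusted p 0.0131 and 0.0101).

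The list of 24 other tip-cell genes was tested whole, and 0 passed in either direction by edgeR. With DESeq2, which called 322 of 38324 genes lower, 3 of the 24 passed, all lower. An unadjusted p under 0.05 by edgeR was reached by 1 higher and 3 lower genes, against 8.88% and 8.62% of all tested genes. The median log2 fold change of the 24 was 0.02. The lymphangiogenic growth factor gene Vegfc was at 17.2, 16.7 and 17.6 CPM in CTRL and 10.02, 8.34 and 14.2 CPM in RbpjΔEC (log2 fold change -0.66, adjusted p by edgeR 0.0858). Nrp1, a coreceptor of VEGF and semaphorins, was at 2310.1, 2369 and 2523 CPM in CTRL and 1905, 2112 and 1633 CPM in RbpjΔEC (log2 fold change -0.35, adjusted p by edgeR 0.0975). The groups did not overlap for either, and both passed with DESeq2 (adjusted p 0.0160 for Vegfc and 0.0249 for Nrp1). Without RbpjΔEC 3, Vegfc also passed with edgeR (adjusted p 0.00553).

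Of 16 genes of stalk and quiescent (phalanx) ECs, all tested, 1 rose and 2 fell by edgeR and 1 rose and 6 fell by DESeq2, with a median log2 fold change of -0.24. The levels of other marker lists are given beside these, with no test of a list. Over all tested genes 0.575% were called higher and 0.559% lower by edgeR, and 1.42% and 1.75% by DESeq2. Mural markers, such as Pdgfrb and Rgs5, summed to 87.4 to 114 CPM in CTRL and 36.1 to 58.1 CPM in RbpjΔEC, with all 9 lower in estimate and 3 called, and glomerular EC markers, such as Ehd3, summed to 2022 to 2533 CPM and 1369 to 1769 CPM, with 4 of 6 called lower. Arterial markers summed to 1877 to 2066 CPM in CTRL and 1528 to 1654 CPM in RbpjΔEC, with 9 of 10 lower in estimate and 1 called lower, and of 19 tested immediate-early genes 7 were called higher. The venous and the macrophage lists each had 1 gene called lower, of 8 and 6 tested. Podocyte markers summed to 3184 to 3564 CPM in CTRL and 2591 to 2859 CPM in RbpjΔEC, with 0 of 5 called. Lymphatic EC markers summed to 633 to 737 CPM in CTRL and 655 to 689 CPM in RbpjΔEC, with 0 of 6 called and a median log2 fold change of -0.94. No marker of these lists was at 0 in all libraries, and their part in the values of the stalk and guidance genes was not tested. Nrarp, a feedback inhibitor of Notch signalling, rose from 32.2, 33.4 and 36.5 CPM in CTRL to 48.6, 42.2 and 51.1 CPM in RbpjΔEC (log2 fold change 0.47, adjusted p by edgeR 0.0377). Jag1, a Notch ligand, fell from 117, 143 and 133 CPM to 80.0, 89.2 and 102 CPM (log2 fold change -0.54, adjusted p by edgeR 0.0368). Acvrl1, the BMP receptor ALK1, fell from 252, 262 and 261 CPM to 207, 201 and 217 CPM (log2 fold change -0.31, adjusted p by edgeR 0.0468). The groups did not overlap for any of these 3 genes. Each of the calls was lost when single libraries were left out: Nrarp without CTRL 1 (adjusted p by edgeR 0.144), CTRL 3 (0.0929) or RbpjΔEC 1 (0.165), Jag1 without CTRL 3 (0.147), RbpjΔEC 1 (0.150) or RbpjΔEC 2 (0.116), and Acvrl1 without CTRL 1 (0.120), CTRL 3 (0.172), RbpjΔEC 1 (0.194) or RbpjΔEC 2 (0.142). In these fits the log2 fold change was 0.43 to 0.53 for Nrarp, -0.53 to -0.46 for Jag1 and -0.33 to -0.28 for Acvrl1. The calls on Nrarp and Acvrl1 were also lost without robust estimation (adjusted p by edgeR 0.0512 and 0.0571), and that on Acvrl1 with library size alone as the scale (0.0714).

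**Figure D5:**
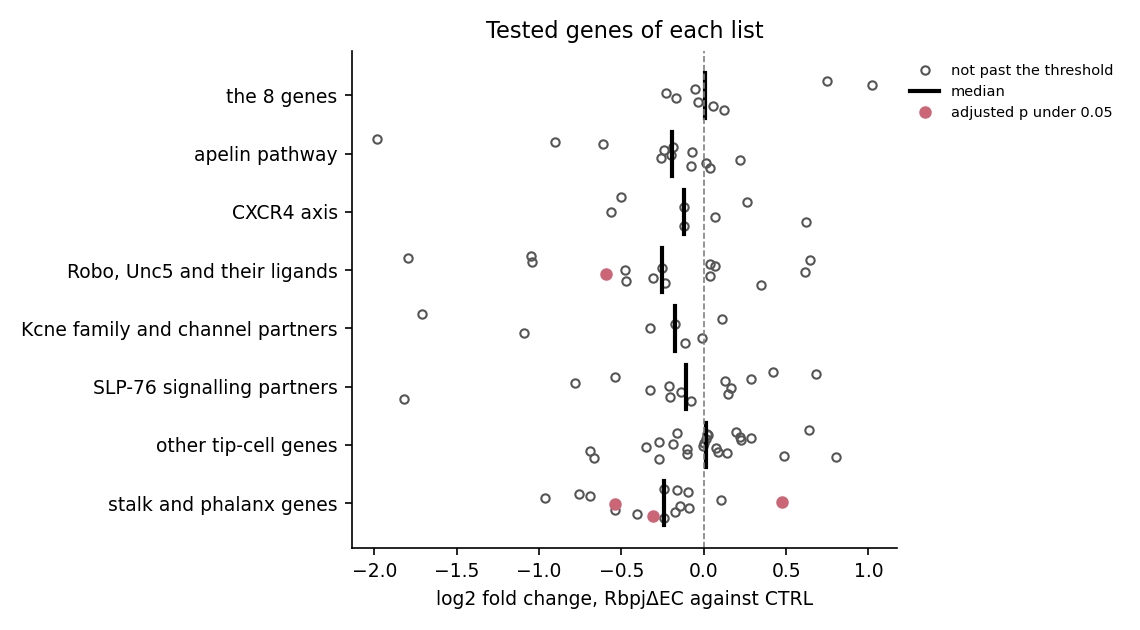
Log2 fold changes of RbpjΔEC against CTRL (x axis) of the tested genes of each list, with open points for genes not past the threshold, filled points for an adjusted p under 0.05 and a bar at the list's median. The 8 genes have a median of 0.01 and hold no filled point, and the 4 filled points are Ntn4, Nrarp, Jag1 and Acvrl1.

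RBPJ binds DNA at a core of 6 bases, TGGGAA, which was searched on both strands of the promoters in RefSeq (GRCm38.p6), each with 250 bases before and 50 after a start. Of all 32851 such promoters 25.56% held the core, and 6.383% held the longer form GTGGGAA, which contains it. Among the 8 genes, 7 matched the promoter table, with 8 promoters, of which 2 held the core and 0 the longer form. The gene without an entry was Aplnr, so its promoter was not searched. The windows of 30 bases around these cores are shown, with the core in capitals, because they are the matches among these genes. In Kcne3 the window is chr7:100178649-100178678 and the core begins 22 bases before a start, and in Lcp2 it is chr11:34046873-34046902 and the core begins 43 bases before the start, both on the plus strand.
Kcne3: ggagggacacccTGGGAAggaaaagggagc
Lcp2: ctgtaatactaaTGGGAAaaaaaatacttg
Both genes had groups that overlapped, and a match is a description of letters, not a binding site.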

How the data were processed

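Stranded total RNA libraries of sorted kidney ECs were made by the authors, sequenced in 1 common run and aligned to GRCm38.p6. Per the labels' processing notes, Trim Galore 0.6.4, STAR 2.6.1d and Subread 1.6.4 were used. The authors deposited whole-number counts per gene, not normalized. Whether the counting used strand is not given in the sources used here.

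The 8 genes and the related lists and markers were chosen with earlier results of these data known. Counts were scaled by TMM and tested in R 4.3.3 with edgeR 4.0.16 (filterByExpr, robust quasi-likelihood fit, Benjamini-Hochberg over 18438 genes, threshold 0.05) between 3 libraries and 3. DESeq2 1.42.0 was an alternative, run on the 38324 genes with a count, with no filter on low counts and, unless stated, no independent filtering. CPM are counts scaled to the TMM-adjusted library size, as cpm() of edgeR gives them, and log2 CPM used a prior count of 2. SEs came from the fold change and the F statistic. The fit was tested on simulated data. Named in the text are the 8 genes, from each related list the genes past the threshold (otherwise 2 with the smallest p), leading markers, and 3 genes nearest in pattern. Outside this rule, Robo1, Robo2, Slit2, Ntn1, the genes with a larger spread than Aplnr and genes near Aplnr were named after their values were seen. Coordinates and exonic lengths came from GENCODE M21 on GRCm38, whereas the authors counted on release M25, so positions and lengths of single genes can differ. Alternatives were other normalizations, filters and tests, the replicate number as a block, and each library left out. Those for genes other than the 8 were added after seeing the data. No libraries were identical. The result for 1 gene of a related list is not reported here.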

Additional observations from a re-analysis of the deposited data

How the results depend on the processing

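Under the 14 alternatives 0 of the 8 genes passed in either direction. Lcp2 had a value in 13 of them, since it was not tested where at least 1 CPM in at least 3 libraries was asked for. The log2 fold change of Apln ranged from 0.48 to 0.92 and that of Aplnr from 0.53 to 1.39 with single libraries left out, and the pooled SD of Aplnr from 0.345 to 0.816. The sign of 4 genes near 0 was not stable. Kcne3 was at 0.010 with library size alone, and with single libraries left out Esm1 ranged from -0.14 to 0.013, Kcne3 from -0.18 to 0.197, Robo4 from -0.041 to 0.13 and Lcp2 from -0.20 to 0.86. Cxcr4 (-0.47 to -0.050) and Unc5b (-0.27 to -0.064) kept their sign.

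Counts over all genes moved more. Against 106 genes higher and 103 lower, the totals were 717 and 719 with no filter on low counts, 262 and 322 with DESeq2, 407 and 485 with DESeq2 under independent filtering, 159 and 82 with library size alone, and 68 higher without robust estimation. Leaving out single libraries gave 7 to 401 higher and 13 to 333 lower. Over the related lists, with 1 higher and 3 lower, no filter gave 2 and 23, and no robust estimation gave 0 higher. DESeq2 gave 15 lower, or 19 under independent filtering. Single libraries left out gave 0 to 2 higher and 0 to 12 lower, with 0 lower without CTRL 3 or RbpjΔEC 1, 1 without RbpjΔEC 2, 8 without CTRL 2 and 12 without RbpjΔEC 3. The cause was not tested. Deviations of samples with the same replicate number had correlations of 0.0231, 0.00916 and 0.00544, and those with other numbers ran from -0.0628 to 0.0480. With 3 libraries per group these values cannot show whether the numbers pair the mice. With the replicate number as a block 166 genes were higher and 178 lower, and in the lists 2 and 7. Under the block Acvrl1 lost its call (adjusted p by edgeR 0.0579) and Vegfc gained one (0.0388). Of 14 genes named from the related lists by the naming rule 0 changed direction under the alternatives, with 11 of them tested under the 1 CPM filter. Robo1, Robo2, Slit2 and Ntn1 are not among these 14. Among the 14, calls were gained by 8 with no filter on low counts, by 3 with DESeq2, by 6 under its independent filtering and by 4 without RbpjΔEC 3, and lost by 4 without CTRL 3 or without RbpjΔEC 1. Counting error was largest for Lcp2, at 13 to 45 counts (19.2%), and was 1.19% for Aplnr.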
